A study of Mus musculus with 2 samples.

Results

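Effector cytokines are the secreted proteins through which lymphocytes act on other cells, and 9 of their genes were followed here: Ifng, Il2, Il4, Il13, Il17a, Il10, Tnf, Csf2 and Ccl1. The genes were taken by symbol and not by a cut on their measured values, but the list was chosen with earlier results of these data known. All 9 were found among the 22620 genes of both libraries. EO771-HEVM3 tumours, grown from a mouse breast cancer line, were collected from C57BL/6J mice together with paired lymph nodes. The HEVM3 subline came from repeated rounds of selection in mice for lung metastases spread through high endothelial venules, the vessels by which lymphocytes enter lymph nodes. Each tissue gave 1 library of droplet-based 3′ transcript counts (unique molecular identifiers, UMIs), made from the pooled cells of 6 mice that no label separates, and neither tissue had a tumour-free control or a treatment. Primary tumours were digested for 2 h in collagenase I, collagenase III and hyaluronidase, and lymph nodes for 1 h in collagenase P, dispase and DNase, so tissue, digestion and library cannot be told apart. With 1 library per tissue no test was run, and each bracketed range is an exact 95% interval that covers counting error only.

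Naive lymphocytes make little effector cytokine, and an activated T cell or natural killer (NK) cell switches on a set that depends on its lineage. Interferon-γ marks type 1 responses, interleukin-4 and interleukin-13 type 2 responses and interleukin-17A type 3 responses, while interleukin-10 restrains inflammation. Tumour necrosis factor, interleukin-10 and granulocyte-macrophage colony-stimulating factor are also made by cells outside the lymphocyte lineage, macrophages among them.

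The members lie on 5 chromosomes of GRCm38. Ifng lies at chr10:118441046-118445892 on the plus strand with 4 exons, Il17a at chr1:20730905-20734496 and Il10 at chr1:131019845-131024974, both on the plus strand. Il2 (chr3:37120523-37125959), Tnf (chr17:35199381-35202007), Csf2 (chr11:54247271-54249667) and Ccl1 (chr11:82176657-82305690) are on the minus strand. Il4 (chr11:53602982-53618669) and Il13 (chr11:53631324-53634702) are neighbours on the minus strand of chromosome 11, 12654 bases apart. Il2 overlaps Adad1 and Csf2 overlaps Gm12223 on the opposite strand, and Ifng overlaps Gm49751 on its own strand. How reads in these overlaps were counted is not given in the sources used here, so the counts of these genes may be affected.

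Promoters of 8 of the 9 members were found in the RefSeq table (250 bases before to 50 after the start, GRCm38.p6). Those of Ifng (chr10:118440796-118441095, plus strand), Il13 (chr11:53634653-53634952, minus), Ccl1 (chr11:82179763-82180062, minus) and Tnf (chr17:35201958-35202257, minus) are shown because Ifng was found in more T-like cells than any other member, 1 cell held the most UMIs of both Il13 and Ccl1 and Tnf was the main myeloid member. Capitals mark letters of the 3 motifs described after the sequences, found on either strand:
Ifng: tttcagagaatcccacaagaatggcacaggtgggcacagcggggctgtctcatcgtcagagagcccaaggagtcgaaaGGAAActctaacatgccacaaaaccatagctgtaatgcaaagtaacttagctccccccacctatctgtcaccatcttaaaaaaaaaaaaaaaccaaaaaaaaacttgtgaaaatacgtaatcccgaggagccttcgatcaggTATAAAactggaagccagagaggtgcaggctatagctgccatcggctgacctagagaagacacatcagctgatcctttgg
Il13: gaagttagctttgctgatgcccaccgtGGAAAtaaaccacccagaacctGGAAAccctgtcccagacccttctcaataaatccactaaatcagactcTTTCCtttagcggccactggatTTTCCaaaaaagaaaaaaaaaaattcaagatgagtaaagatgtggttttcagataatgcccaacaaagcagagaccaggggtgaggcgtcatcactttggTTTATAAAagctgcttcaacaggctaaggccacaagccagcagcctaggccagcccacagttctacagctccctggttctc
Ccl1: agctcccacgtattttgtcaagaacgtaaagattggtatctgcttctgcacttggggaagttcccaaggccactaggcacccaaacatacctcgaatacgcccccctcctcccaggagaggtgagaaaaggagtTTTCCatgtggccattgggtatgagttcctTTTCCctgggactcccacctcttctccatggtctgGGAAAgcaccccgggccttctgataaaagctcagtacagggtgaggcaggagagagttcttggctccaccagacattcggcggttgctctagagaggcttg
Tnf: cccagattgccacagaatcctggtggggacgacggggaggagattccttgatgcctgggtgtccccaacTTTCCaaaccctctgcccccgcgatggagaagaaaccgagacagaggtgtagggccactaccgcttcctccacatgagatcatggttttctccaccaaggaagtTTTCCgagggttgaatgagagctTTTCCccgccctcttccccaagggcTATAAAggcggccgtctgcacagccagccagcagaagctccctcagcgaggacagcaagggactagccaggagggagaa
TATAAA, the core of the TATA box, was present in 5 of the 8 members with an entry and in 13.6% of all 32851 promoters. GGAAA, the core recognised by NFAT factors, was present in 7 of 8 members against 61.3% of promoters. TGANTCA, the AP-1 sequence, was present in 1 member, Il17a, against 7.81%. In Il13 the run TTTATAAA holds the TATA letters on both strands, and in Ccl1 the RefSeq start differs from the outermost start of the GENCODE gene. These matches describe letters in the window and say nothing about occupancy.

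The deposited libraries held 12427 primary tumour and 11617 lymph node cells, with median depths of 9161 and 2630 UMIs. The limits on genes, mitochondrial UMIs and doublets left 8756 (70.5%) and 9689 (83.4%) cells. Of 47 cell barcodes shared by both libraries, 31 were kept in both. No cell annotation was used, and classes are called X-like from marker genes of clusters built without the 9 members. The primary tumour held 554 T-like cells and the lymph node 3688. In the same order, NK-like cells numbered 25 and 66, macrophage- or monocyte-like cells 916 and 24, neutrophil-like cells 311 and 37, B-like cells 9 and 4617, and cancer-like cells 6134 and 626. Clusters without a name held 5.63% and 0.753% of the cells. The T-like class was made of different clusters in each tissue: 4.0, 4.1 and 4.3 held most primary tumour cells and 14, 15 and 11 most lymph node cells. Levels are UMIs per 1000000 UMIs of a class (CPM), which compare 1 gene between classes and not 1 gene with another, since 3′ counts are not scaled by length.

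**Figure D1:**
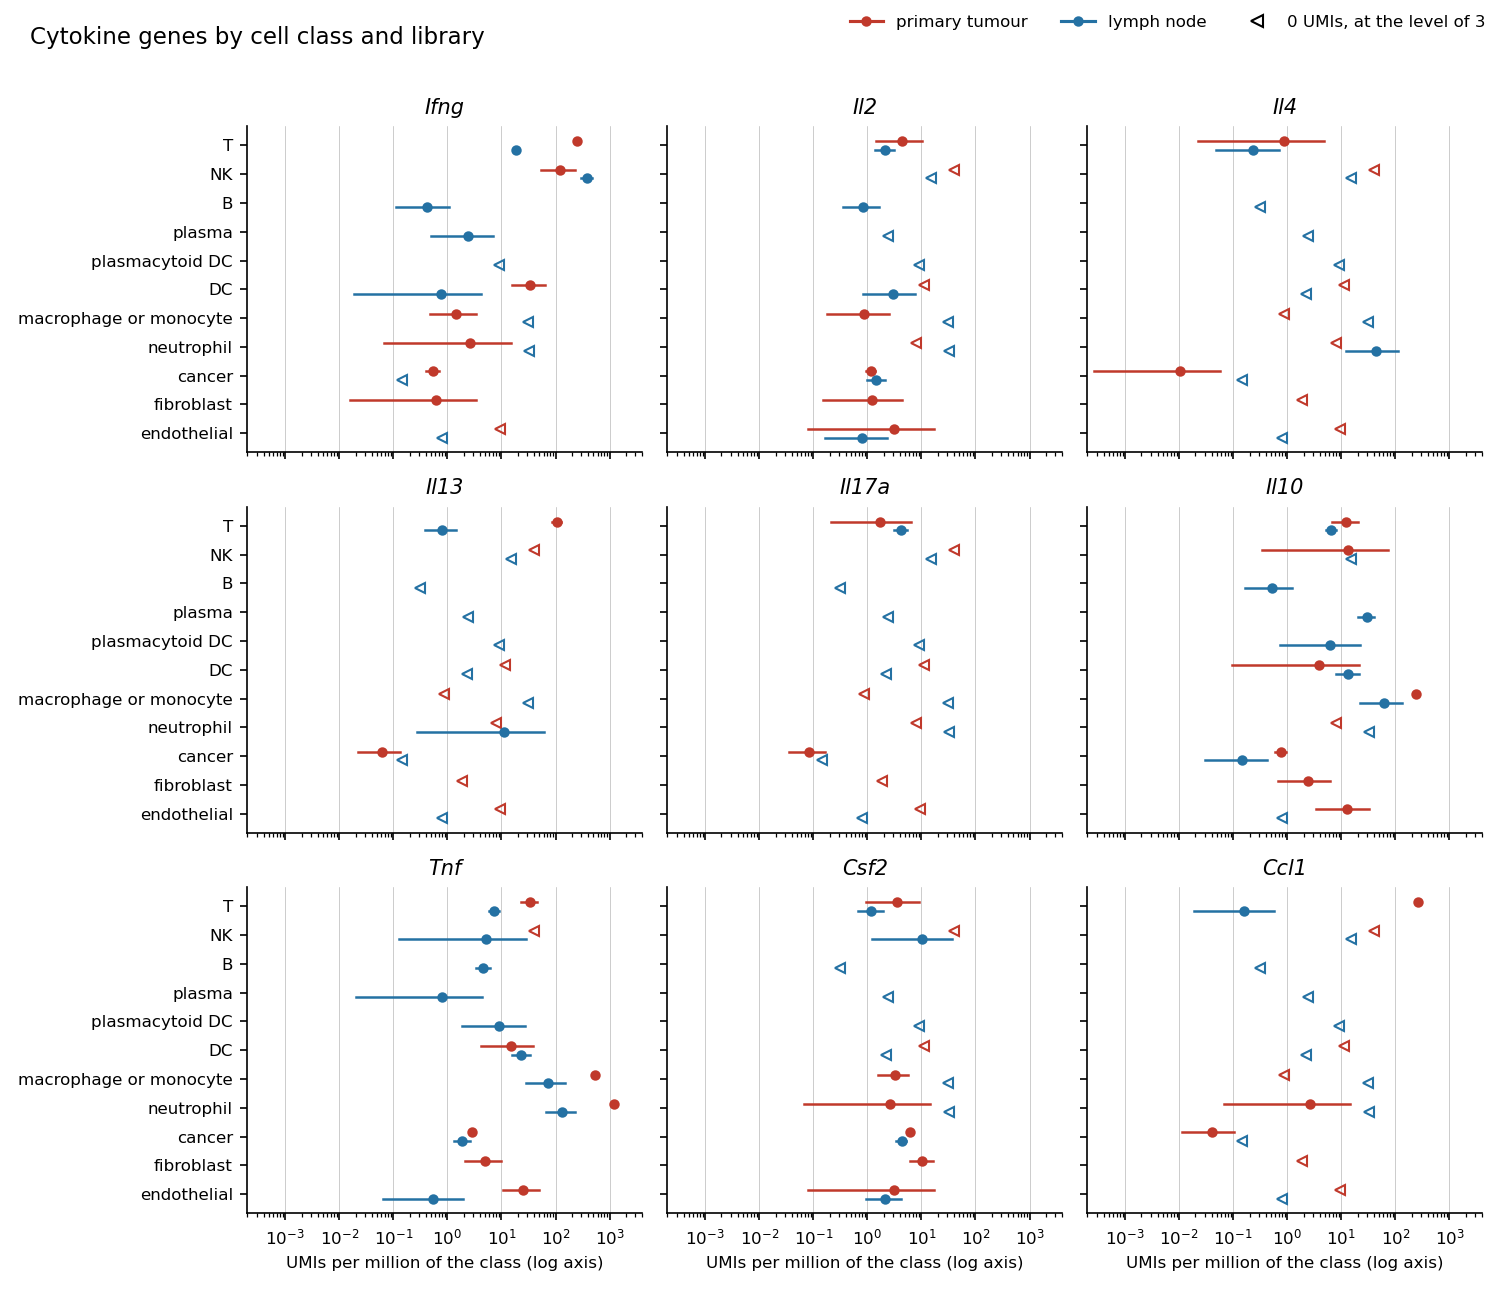
Level in CPM (log axis) of each of the 9 genes in each cell class with at least 20 cells, primary tumour in red and lymph node in blue; lines are exact 95% Poisson intervals and open triangles mark 0 UMIs, drawn at the level that 3 UMIs would give. Ifng is high in T-like and NK-like cells and Tnf and Il10 in macrophage- or monocyte-like cells. Csf2 in both libraries and Il2 in the primary tumour have most of their UMIs in cancer-like cells. In the tumour these cells also held most UMIs of all genes.

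Ifng encodes interferon-γ, the cytokine by which T and NK cells activate macrophages and raise antigen presentation. The primary tumour held 403 kept UMIs in 166 cells and the lymph node 318 in 114 cells. T-like and NK-like cells together held 72.7% of the tumour UMIs and 97.5% of the lymph node UMIs. Ifng was thus a lymphocyte transcript in both tissues, and no single cell held more than 7.94% of its UMIs in either.

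In primary tumour T-like cells Ifng had 284 UMIs in 118 of 554 cells, a level of 248 CPM (220 to 279). Lymph node T-like cells held 236 UMIs in 84 of 3688 cells, a level of 18.6 CPM (16.3 to 21.1). After thinning each cell to 1000 UMIs, which left out 130 and 23 shallower cells, 15.6% (12.3 to 19.4) of primary tumour and 1.06% (0.751 to 1.44) of lymph node T-like cells had an Ifng UMI. Both the level and the share were therefore higher in the tumour, well outside counting error. Without thinning 21.3% and 2.28% of the cells had one, where the median cell held 1509 and 2991 UMIs. B-like cells of the lymph node (median 1800 UMIs), which should lack Ifng, had a UMI in 0.065% of cells unthinned and 0.0377% thinned, and cancer-like cells of the primary tumour (median 14052) in 0.44% and 0.0407%, so that the T-like shares lay above background in both tissues.

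The NK-like cells of the lymph node had the highest Ifng level of any class, 74 UMIs in 24 of 66 cells or 376 CPM (295 to 472). The 25 NK-like cells of the primary tumour held 9 UMIs in 4 cells, 119 CPM (54.2 to 225). These intervals do not overlap, but the lymph node level rested on few cells: it was 287 CPM without its highest cell and 178 CPM under a mitochondrial limit of 10%. The latter lies below the 252 CPM of tumour T-like cells under that limit, so the first rank ended there. The 178 CPM also lies within the interval of tumour NK-like cells above, but that interval is from the main mitochondrial limit. No tumour NK-like level is given under the limit of 10%, so the gap between the tissues was not tested there.

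Among primary tumour T-like cells the Ifng UMIs lay mainly in cells with a UMI of Cd8a, the coreceptor of cytotoxic T cells. Of 284 cells with Cd8a and neither Cd4 nor Foxp3, 88 (31.0%) held 209 Ifng UMIs (293 CPM, 254 to 335), against 6 of 48 cells with Cd4 alone, which held 12 (96.5 CPM, 49.8 to 168). Among lymph node T-like cells, 25 of 619 cells with Cd4 alone held 80 UMIs (40.0 CPM, 31.7 to 49.8) and 17 of 607 cells with Cd8a alone held 62 (23.2 CPM, 17.7 to 29.7). Of these 2 statuses the higher Ifng level was thus with Cd8a in the tumour and with Cd4 in the lymph node. A cell without a UMI of a coreceptor may still express it, and 187 tumour and 2168 lymph node T-like cells had none of Cd4, Cd8a, Foxp3 and Trdc. In the tumour these cells had 61 Ifng UMIs, 256 CPM (196 to 329), an interval that overlaps that of cells with Cd8a.

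By cluster, Ifng reached 475 CPM (389 to 575) in the 68 primary tumour cells of cluster 4.3 (leading genes Tnfsf10, Il2ra and Ifng itself) and 292 CPM (247 to 343) in the 249 cells of cluster 4.0 (Cxcr6, Klrc2, Klrd1, Cd8a). It was lower, 96.8 CPM (64.3 to 140), in the 184 cells of cluster 4.1, led by the inhibitory receptor gene Pdcd1. In the lymph node the level was 55.7 CPM (46.4 to 66.3) in cluster 11 (Tnfrsf4, Izumo1r, Foxp3) but 11.5 CPM (9.0 to 14.4) in cluster 14 and 5.60 CPM (3.42 to 8.65) in cluster 15, both led by genes that include Lef1, a factor of naive T cells. In the 2 T-like clusters with at least 20 cells from both libraries, 11 and 4.1, the intervals of the tissues overlapped. Cluster 11 had 18.5 CPM (2.23 to 66.7) in the tumour, from 2 UMIs in 1 of 42 cells, against 55.7 CPM in the lymph node, and cluster 4.1 had 96.8 CPM in the tumour against 189 CPM (103 to 317) in 21 lymph node cells, where 1 cell held 11 of 14 UMIs. A higher Ifng level in the tumour, as seen for T-like cells as a class, was therefore not detectable within these clusters, which hold few cells of one tissue or the other.

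**Figure D2:**
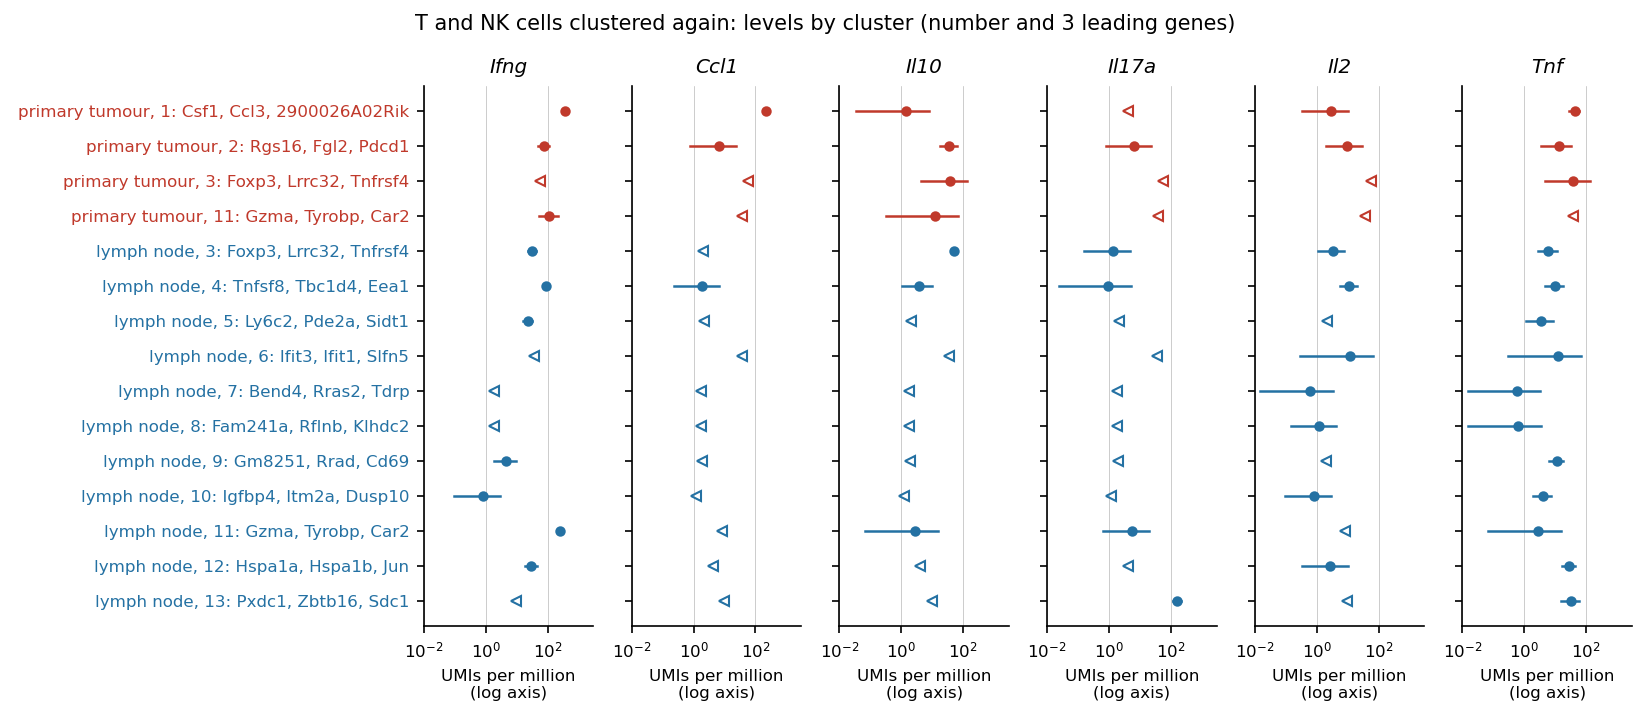
Level in CPM (log axis) of 6 genes in T-like and NK-like cells clustered again, by library and cluster, labelled with the cluster number and 3 leading genes; points carry exact 95% Poisson intervals and open triangles mark 0 UMIs at the level of 3 UMIs. Among the clusters drawn, those with at least 20 cells of the library, primary tumour Ifng and Ccl1 are highest in cluster 1, while the Cd4-bearing cells with both Il13 and Ccl1 lie among clusters of fewer tumour cells that are not drawn, and among lymph node clusters Il10 is highest in cluster 3, which is led by Foxp3, and Il17a in cluster 13.

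A second clustering of the T-like and NK-like cells alone also gave unequal Ifng levels. The 296 primary tumour cells of its cluster 1, led by Csf1, Ccl3 and Ccl4, held 259 UMIs in 102 cells (363 CPM, 320 to 410), while 203 cells of cluster 2, led by Rgs16 and Pdcd1, had 74.1 CPM (47.0 to 111). Lymph node cluster 4 (283 cells, Tnfsf8 and Cd4 among its leading genes) reached 90.9 CPM (73.6 to 111) and cluster 11, led by the NK gene Gzma, 247 CPM (199 to 303). No Ifng UMI was found in the 419 and 507 lymph node cells of clusters 7 and 8, where 3 UMIs would give 1.78 and 1.81 CPM.

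Most tumour Ifng UMIs outside the T-like and NK-like classes were in cancer-like cells and in 1 unnamed cluster. Primary tumour cancer-like cells held 52 in 27 cells (0.535 CPM, 0.399 to 0.701), of which 44 were in 19 cells of cluster 0, and the 626 lymph node cancer-like cells held none, which allows up to 0.146 CPM. Those 27 tumour cells all had a UMI of the epithelial keratin gene Krt8, but 37% of them also had Cd8a and 51.9% Ccl5, against 0.77% and 4.67% of the other cancer-like cells, at median depths of 25316 and 14007 UMIs, and the part of T cell RNA or depth in their Ifng was not tested. A further 40 UMIs were in the 28 cells of the unnamed cluster 4.2 (396 CPM, 283 to 539, a level between those of clusters 4.3 and 4.0), led by the granzyme genes Gzmg, Gzmf and Gzmd, where 1 cell held 28. The markers that scored highest in cluster 4.2 were those of T cells, with 10 raised.

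Tumour T-like cells with an Ifng UMI differed from those without in several other transcripts. Ccl4, a chemokine of activated T cells, was found in 56.8% of the 118 cells with Ifng and 25.5% of the others, and Ccl3 in 40.7% and 10.8%. Ccl5 was closer, with 69.5% and 61.2%, Cd40lg had 1.69% and 1.38%, and Lta was found in 0.847% and 1.61%. Tbx21, which encodes the type 1 factor T-bet, was found in 21.2% and 7.8%, and Cd8a in 76.3% and 45.6%. Cd4 went the other way, with 5.93% and 11.9%. Tumour T-like cells with an Ifng UMI were deeper than those without (medians of 2296 and 1327.5 UMIs), and the part of depth in these shares was not tested.

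Il2 encodes interleukin-2, the growth factor of activated T cells. In the primary tumour 112 of its 124 UMIs were in 111 cancer-like cells, of which 1 held 2 UMIs and the others 1. Cancer-like cells held 97279295 of the 105929106 kept tumour UMIs of all genes, so this share was close to that of all transcripts. The Il2 level was 1.15 CPM (0.948 to 1.39) in cancer-like cells and 0.867 CPM (0.179 to 2.53) in macrophage- or monocyte-like cells. In tumour T-like cells it was 4.37 CPM (1.42 to 10.2), from 5 UMIs in 5 cells. In the lymph node the levels were 2.12 CPM (1.40 to 3.09) in T-like cells, from 27 UMIs in 18 cells, 1.46 CPM (0.987 to 2.09) in cancer-like cells and 0.821 CPM (0.355 to 1.62) in B-like cells. Levels near 1 CPM were thus found in cells that should lack Il2, and the interval of lymph node T-like cells overlapped that of cancer-like cells. In the tumour the T-like interval, from 5 UMIs, lay just above that of cancer-like cells but overlapped that of macrophage- or monocyte-like cells. After thinning, 0.176% of lymph node T-like cells and 0.134% of cancer-like cells (medians 2991 and 34758.5 UMIs) had an Il2 UMI.

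Within the lymph node T-like class Il2 was concentrated. Cluster 11 held 17 of the 27 UMIs in 9 of 537 cells, 7.46 CPM (4.34 to 11.9), and cells with Cd4 but neither Cd8a nor Foxp3 held 16 UMIs in 8 of 619 cells, 8.0 CPM (4.57 to 13). Both intervals lay above that of cancer-like cells. The 2 cells with most Il2 held 5 and 4 UMIs, both had a Cd4 UMI, and the first also held 5 Ifng UMIs.

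Il4 encodes interleukin-4, the inducer of type 2 T cells and IgE. It was close to absent, with 2 kept UMIs in primary tumour cells and 7 in lymph node cells. Of the latter, 3 UMIs were in 3 T-like cells of cluster 11 and 4 in 3 cells of the neutrophil-like class (43.8 CPM, 11.9 to 112). A level this low supports no comparison between tissues.

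Il13 encodes interleukin-13, which drives mucus production and alternative activation of macrophages, and Ccl1 encodes a chemokine that binds the receptor CCR8. Both looked high in primary tumour T-like cells and both rested on very few cells. Il13 had 120 UMIs in 5 T-like cells, a level of 105 CPM (86.9 to 125), of which 108 lay in 1 cell, and 10.6 CPM without it. Ccl1 had 296 UMIs in 13 T-like cells, 258 CPM (230 to 290), of which 126 lay in that same cell and 113 in another, and 151 CPM without the highest cell. The cell shared by both genes held 16801 UMIs and 4138 detected genes, against a median of 1509 UMIs in its class, with 8 Cd4 UMIs, 2 Cd3e UMIs, 1 Lyz2 UMI and no Krt8 UMI. A further cell with Cd4 held 7 Il13 and 15 Ccl1 UMIs and a cell of cluster 4.3 held 1 and 7. Il13 and Ccl1 thus met in 3 of the 5 T-like cells with Il13.

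The second Ccl1-rich cell was of another kind. Its 113 Ccl1 UMIs stood beside 28 Ifng UMIs and no Il13 UMI, in cluster 4.3, whose 68 tumour cells held 149 Ccl1 UMIs in 8 cells (668 CPM, 565 to 784). That cell had no UMI of Cd3e, Cd4 or Cd8a, and neither had the cells of cluster 4.3 with 16 and 7 Ccl1 UMIs. The cell with 16 had 1 UMI of the NK gene Ncr1. In all, 8 of the 13 T-like cells with Ccl1 also held Ifng. Most Ccl1 UMIs of the tumour thus lay either in Cd4-bearing cells of cluster 11 that also held Il13 or in cluster 4.3. Lymph node T-like cells had 2 Ccl1 UMIs in 2 cells (0.157 CPM, 0.0190 to 0.568) and 10 Il13 UMIs in 5 cells, 6 of them in 1 cell (0.786 CPM, 0.377 to 1.45).

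**Figure D3:**
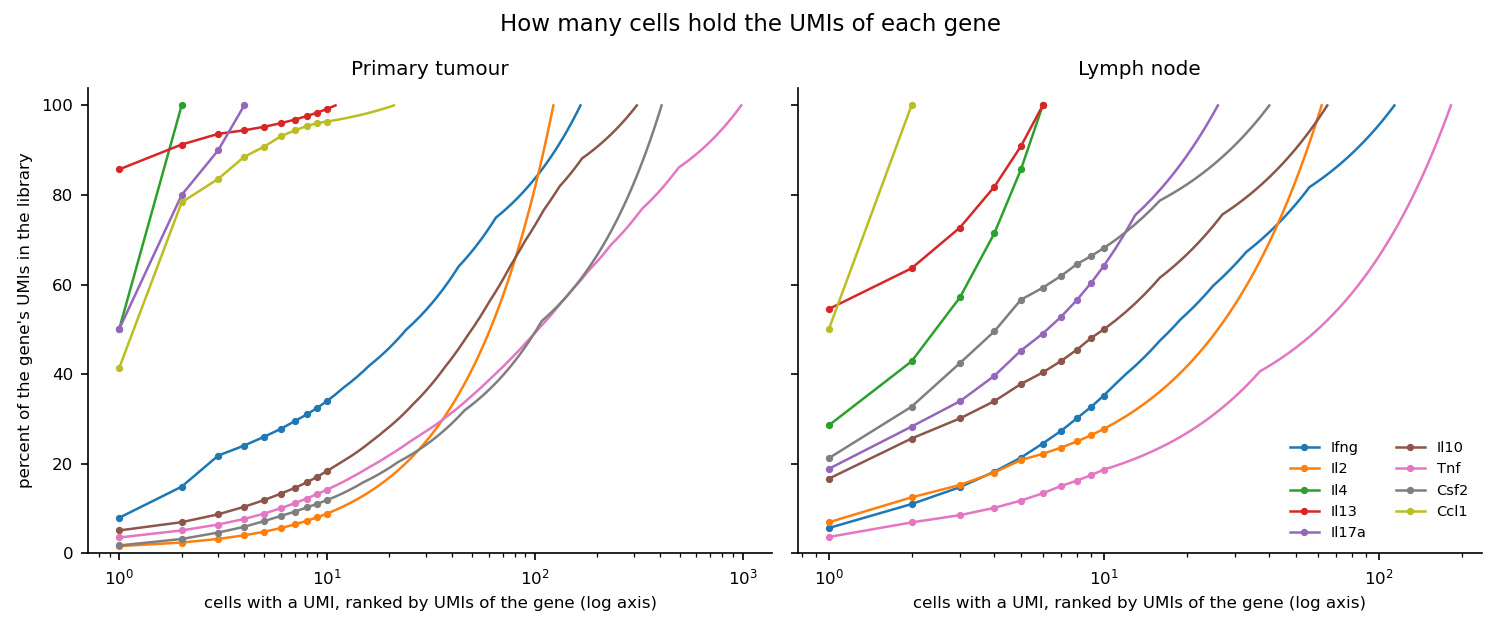
Cumulative percent of each gene's kept UMIs against the cells that hold them, ranked from the cell with most UMIs (log axis), for each library, with the first 10 cells as points. In the primary tumour the first cell holds 85.7% of Il13 and 41.3% of Ccl1 UMIs, while Tnf, Csf2, Il10, Ifng and Il2 are spread over more than 100 cells.

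Il17a encodes interleukin-17A, which recruits neutrophils through epithelial and stromal cells. All 53 lymph node UMIs were in T-like cells, in 26 of 3688 cells (4.17 CPM, 3.12 to 5.45). Of these, 48 UMIs in 23 cells belonged to the 100 cells of cluster 18, at 149 CPM (110 to 197), with a UMI in 23.0% of its cells. Cluster 18 was led by Scart2, Trgc1, Trdc and Zbtb16, genes of γδ and innate-like T cells, and all 6 detected γδ or innate-like markers were raised in the cluster that held the same 48 UMIs when T-like and NK-like cells were clustered again. Il17a was therefore found mainly in 1 small lymph node cluster, which had no primary tumour cell. Among T-like cells with Il17a, 38.5% had a Trdc UMI and 26.9% an Il17f UMI, against 3.11% and 0.164% of the others.

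The primary tumour held 10 Il17a UMIs in 4 cells. Both T-like cells with Il17a held 1 UMI each in cluster 4.1 and had a Trdc UMI, and 2 cells of the cancer-like class held 5 and 3 UMIs. Those 2 cells had 1 and 2 Trdc UMIs beside 21 and 25 Krt8 UMIs. In the tumour T-like class 2 UMIs amount to 1.75 CPM (0.211 to 6.31), an interval that holds the lymph node level.

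Il10 encodes interleukin-10, the cytokine that dampens macrophages and dendritic cells. In the primary tumour 71.0% of its 1192 UMIs were in myeloid-like cells and 1.26% in T-like and NK-like cells. Macrophage- or monocyte-like cells held 845 UMIs in 163 of 916 cells, 244 CPM (228 to 261), and T-like cells 14 UMIs in 10 cells, 12.2 CPM (6.68 to 20.5). No Il10 UMI was found in 311 neutrophil-like cells, which allows up to 7.93 CPM. The tumour Il10 thus lay mainly in macrophage- or monocyte-like cells and was not detectable in neutrophil-like cells at this depth. With thinning 12.5% (10.3 to 14.9) of macrophage- or monocyte-like cells had an Il10 UMI and without it 17.8%, against 0.1% and 1.04% of cancer-like cells, at median depths of 2763 and 14052 UMIs.

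Il10 was unequal among the macrophage- or monocyte-like clusters. Among clusters of at least 20 cells it was highest in cluster 10.2, led by Ccl8, C1qc, C1qa and Mrc1, genes of tissue macrophages, with 486 CPM (444 to 530) and a UMI in 35.7% of 235 cells. Clusters 10.0 and 10.1 of the class followed with 236 CPM (203 to 272) and 227 CPM (176 to 287), whose intervals overlap. The unnamed clusters 10.3 and 10.4 had 377 CPM (310 to 454) and 199 CPM (166 to 236). Cluster 13, led by Mmp12, Lpl and Gpnmb, had 26.4 CPM (17.8 to 37.7). The interval of cluster 13 thus lay far below the others.

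In the lymph node the T-like cells held most Il10, 82 of 156 UMIs, in 35 cells (6.45 CPM, 5.13 to 8.0). Cluster 11 held 80 of these 82, and cells with a UMI of Foxp3, the factor of regulatory T cells, held 45 in 17 of 166 cells (53.4 CPM, 38.9 to 71.4). The Foxp3-led cluster 3 of the second clustering had 51.4 CPM (40.6 to 64.2), while 607 cells with Cd8a alone held no Il10 UMI. That Foxp3-led cluster held 77 of the 82 Il10 UMIs of lymph node T-like cells. Plasma-like cells held 37 UMIs in 12 of 101 cells (29.3 CPM, 20.6 to 40.4), of which 26 were in 1 cell, and 8.85 CPM without it. Likewise 14 of the 18 UMIs in dendritic cell (DC)-like cells were in 1 cell. The 24 macrophage- or monocyte-like cells had a higher level than the T-like class, 61.5 CPM (22.6 to 134), from 6 UMIs in 3 cells.

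Tnf encodes tumour necrosis factor, the inflammatory cytokine of macrophages and T cells, and had the most UMIs of the 9 genes in the primary tumour, 3553 in 986 cells. Neutrophil-like cells had the highest level, 463 UMIs in 89 of 311 cells or 1223 CPM (1114 to 1340), although 1 cell held 126 UMIs and the level without it was 896 CPM. Macrophage- or monocyte-like cells held 1874 UMIs in 425 of 916 cells, 542 CPM (518 to 567). Tumour T-like cells had 38 UMIs in 26 cells, 33.2 CPM (23.5 to 45.5), and cancer-like cells 278 UMIs in 224 cells, 2.86 CPM (2.53 to 3.21). The 70 DC-like cells had 4 UMIs, 15.2 CPM (4.14 to 38.9), which overlaps the T-like interval. Neutrophil-like and macrophage- or monocyte-like cells thus held most Tnf UMIs of the tumour, and in CPM the T-like level lay between theirs and that of cancer-like cells.

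Thinned shares of cells with a Tnf UMI were 28.2% (25.2 to 31.3) in macrophage- or monocyte-like cells, 2.38% (1.15 to 4.33) in T-like cells and 0.33% (0.202 to 0.509) in cancer-like cells, and unthinned they were 46.4%, 4.69% and 3.65%. The 10 macrophage markers summed to 48.9 CPM in tumour T-like cells, with 1 marker at 0, and to 4355 CPM in macrophage- or monocyte-like cells, and their part in the Tnf and Il10 UMIs of T-like cells was not tested.

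Cluster 10.0, with F13a1, Tnf itself and Ptgs2 among its leading genes, had the highest Tnf level of the macrophage- or monocyte-like clusters, 1365 CPM (1285 to 1448), with a UMI in 60% of 310 cells. Clusters 13, 10.1 and 10.2 had 312, 293 and 293 CPM, with overlapping intervals. The unnamed clusters 10.3, led by Spic, Treml4 and Ace, and 10.4 had 1016 CPM (905 to 1138) and 878 CPM (807 to 953). The orders of Tnf and Il10 over the clusters therefore differed: cluster 10.2 had the highest Il10 and a Tnf level no higher than its neighbours, and neutrophil-like cells had Tnf without Il10. Within the macrophage- or monocyte-like class, 97 of the 163 cells with Il10 also held Tnf.

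**Figure D4:**
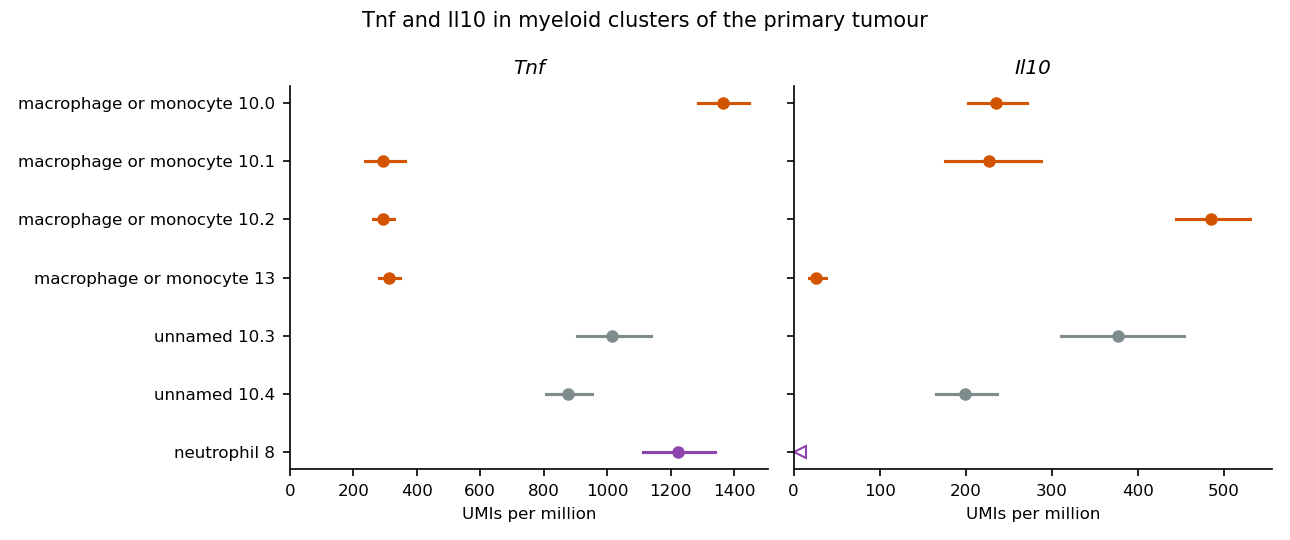
Level in CPM of Tnf and of Il10 (linear axes from 0) in the macrophage- or monocyte-like clusters (orange), unnamed clusters (grey) and neutrophil-like cluster 8 (purple) of the primary tumour; lines are exact 95% Poisson intervals and the open triangle marks 0 UMIs at the level of 3 UMIs. Tnf is highest in clusters 10.0 and 8 and Il10 in cluster 10.2.

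Lymph node Tnf was thinly spread, with 246 UMIs in 183 cells and no cell above 9 UMIs. The 37 neutrophil-like and 24 macrophage- or monocyte-like cells had 131 CPM (67.9 to 229.6) and 71.8 CPM (28.9 to 148), both below the tumour levels of their classes. Most lymph node cells of the latter class, 16 of 24, were in cluster 10.1, which had 293 CPM in the tumour. T-like cells had 7.23 CPM (5.83 to 8.87), B-like cells 4.62 CPM (3.37 to 6.18) and DC-like cells 23.3 CPM (15.9 to 33.1). The intervals of T-like and B-like cells overlap.

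Csf2 encodes granulocyte-macrophage colony-stimulating factor, which supports neutrophils, macrophages and DCs. It was mainly found in cancer-like cells here, which held 94.2% of 623 UMIs in the primary tumour and 77.9% of 113 in the lymph node. The same cells held 97279295 of the 105929106 kept UMIs of all genes in the tumour library and 20502381 of 50304475 in the lymph node library, so in the tumour the share of Csf2 was close to that of all transcripts. The level in cancer-like cells was 6.03 CPM (5.56 to 6.54) in the tumour, from 587 UMIs in 387 of 6134 cells, and 4.29 CPM (3.44 to 5.29) in the lymph node, from 88 UMIs in 35 of 626 cells. The lymph node level depended on few cells, since 1 held 24 UMIs and the level was 3.13 CPM without it and 1.99 CPM where no upper limit on detected genes was set.

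Csf2 was also unequal among tumour cancer-like clusters. It was 13.5 CPM (11.1 to 16.2) in cluster 6 and 12.5 CPM (11 to 14.1) in cluster 3, both led by Alb and Tff1 among others, and 9.06 CPM (7.59 to 10.7) in cluster 5. Clusters 2 and 0, by contrast, had 1.42 CPM (0.825 to 2.27) and 1.11 CPM (0.789 to 1.52), levels that did not overlap those of clusters 3, 5 and 6. Fibroblast-like cells of the tumour had 10.5 CPM (6.09 to 16.7), from 17 UMIs in 8 cells, of which 1 held 8, and 5.58 CPM without it.

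Lymphocyte Csf2 was scarce. Tumour T-like cells held 4 UMIs in 4 cells, 3.49 CPM (0.951 to 8.94), an interval that holds the cancer-like level, and thinned shares were 0.446% in T-like and 0.599% in cancer-like cells. Lymph node T-like cells held 15 UMIs in 3 cells, 14 of them in 2 cells of the Il17a-bearing cluster 18, and 1 cell held 11.

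The design sets T-like cells of the lymph node against those of the primary tumour. The lymph node sum held 12720285 UMIs and the tumour sum 1145431. Of the 9 members, 7 had at least 20 UMIs over both sums, and Il4 and Csf2 did not. Of the 7, 5 were at least 2-fold lower in the lymph node and 0 higher, where 29.9% of the 10275 genes above this minimum were lower and 6.4% higher. The median log2 ratio of the 7 was -2.21, against -0.50 over all genes, and a member that is high in only 1 tissue passes the minimum through that tissue.

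Among the members that fell outside 2-fold, Ifng had a log2 ratio of -3.74 (-4.00 to -3.49) and Tnf of -2.21 (-2.76 to -1.61). Ccl1 had -10.36 (-13.7 to -8.82) and Il13 -6.99 (-8.15 to -6.13), both resting largely on the few tumour cells described above. Without the highest cell of each library Il13 had -4.97, and T cells picked by marker UMIs alone, a gate that drops the Il13-rich cell for its Lyz2 UMI, held no Il13 UMI in the tumour. For Il2 the ratio was -1.15 (-2.44 to 0.69), which passed 2-fold in the point value only and did not pass it under a mitochondrial limit of 10% (-0.70) or when scaled without the 50 genes with most UMIs (-0.93). Il10 had -0.96 (-1.75 to 0.01) and Il17a 0.95 (-0.67 to 4.34), so neither passed 2-fold. Both lay close to it, and Il17a passed it upward under 6 alternatives (1.03 to 1.40) and Il10 downward under 3 (-1.91 to -1.09), so the count of 5 lower and 0 higher changes with the processing. Ifng and Tnf thus kept a lower lymph node level without their highest cells, at 17.2 against 221 CPM and 6.92 against 24.6 CPM.

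**Figure D5:**
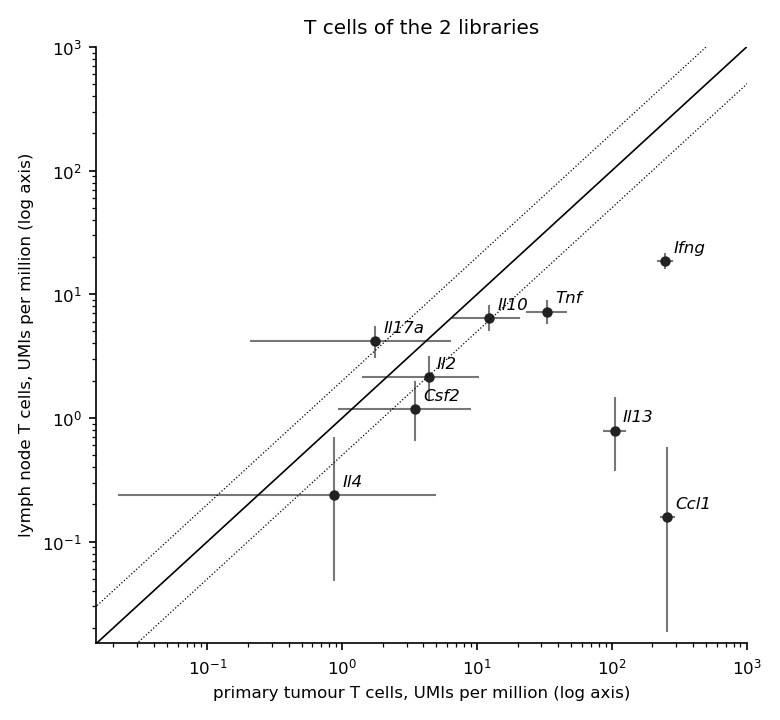
Level in CPM of the 9 genes in T-like cells of the primary tumour (x axis) and lymph node (y axis), both log axes, with exact 95% Poisson intervals as grey lines, the line of equal levels and dotted lines at 2-fold. Ifng, Tnf, Il13 and Ccl1 lie below the lower dotted line with their intervals, and Il17a lies above the line of equal levels.

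Other gene lists moved between the same sums. Of 16 other lymphocyte cytokine genes, 13 were tested, 11 were lower in the lymph node and 1 higher, with a median log2 ratio of -1.98. Ccl3 (-6.64), Ccl4 (-6.37), Tnfsf10 (-3.96) and Fasl (-2.97), the last 2 encoding death ligands, were the furthest. Ccl3 and Ccl4 were highest in tumour neutrophil-like cells, with 6088 and 9055 CPM, against 326 and 1116 CPM in tumour T-like cells. Free RNA was not removed, and its part in these ratios was not tested. The 1 higher gene, Il17f, had 24 UMIs against 0, where 3 tumour UMIs would give 2.62 CPM and the lymph node level was 1.89 CPM, so no ratio is given. Of 13 lineage factor genes tested, 7 were lower, among them Tbx21 (-3.84), Eomes (-3.20), Gata3 (-1.80) and Runx3 (-1.78), and 1 was higher, Zbtb16 (1.32, -0.27 to 4.71). All 4 proliferation genes were lower, with a median of -2.54. The lower factor genes belong to several lineages, with Maf (-1.66), Irf4 (-1.28) and Nfatc1 (-1.28) among them, and Stat4, of the type 1 pathway, had 0.50 (0.22 to 0.82).

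Digestion and cell mix moved with the tissue too. Of 12 early response and heat shock genes, which tissue dissociation can raise, 4 were higher in the lymph node (Fos 2.58, Jun 1.3, Dnajb1 1.16, Junb 1.05) and 1 lower (Egr1 -1.13), with a median of 0.55. In T-like cells the 10 NK markers summed to 1645 CPM in the tumour, 3 of them at 0, and to 207 CPM in the lymph node, none at 0. The 10 cancer markers summed to 354 CPM, 3 at 0, and 76.8 CPM, 1 at 0. In the same order, monocyte markers summed to 1076 and 411 CPM, macrophage markers to 48.9 and 35.1 CPM and neutrophil markers to 25.3 and 11.2 CPM. B cell markers went the other way, with 3.49 and 43.9 CPM. Their part in the member ratios was not tested.

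Within the primary tumour, T-like and NK-like cells (579 cells) were set against myeloid-like cells (1297 macrophage-, monocyte-, neutrophil- or DC-like cells). Here 5 of 9 members had at least 20 UMIs over both sums. Ifng, Il13 and Ccl1 were at least 2-fold higher in lymphocytes and Il10 and Tnf at least 2-fold lower, where 27.3% of 9862 genes were higher and 17.4% lower. Ifng had a log2 ratio of 5.99 (5.29 to 6.89), from 293 UMIs against 15, and Ccl1 of 9.37 (7.47 to 15.3), from 296 against 1. Il13 had 120 UMIs against 0, at least 134-fold higher when the myeloid sum is put at 3 UMIs. Il10 had -4.02 (-4.91 to -3.34) and Tnf -4.18 (-4.70 to -3.74). Ifng, Il13, Ccl1 and Il10 reached the minimum only through the sum in which they were high, so the counts of members are a description, and 108 of the 120 Il13 UMIs lay in 1 cell.

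Most cells with a member UMI held 1 member. Of 579 tumour T-like and NK-like cells, 158 (27.3%) held a UMI of any member, 130 of them of 1 member, 26 of 2 and 2 of 3 or more. In the lymph node 265 of 3754 (7.06%) did, 250 of them of 1 member. The pair met most often in tumour lymphocytes was Ifng with Tnf, in 14 cells, of 122 with Ifng and 26 with Tnf, and then Ifng with Ccl1, in 8. Among macrophage- or monocyte-like tumour cells 499 of 916 (54.5%) held a member, 400 of them 1 member, 97 of them 2 and 2 of them more, with Tnf or Il10 in nearly all.

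Receptor genes of these cytokines lay in several classes. Il2rb, which encodes a chain of the interleukin-2 and interleukin-15 receptors, was highest in tumour NK-like cells (1937 CPM, 1637 to 2277) and Il2ra in tumour T-like cells (139 CPM, 118 to 162). Csf2rb was highest in tumour DC-like cells (755 CPM, 654 to 868), Tnfrsf1b in tumour neutrophil-like cells (581 CPM, 507 to 663) and Il13ra1 in tumour fibroblast-like cells (81.2 CPM, 67.9 to 96.3), the last with an interval that overlaps that of macrophage- or monocyte-like cells (60.1 CPM, 52.2 to 68.9). Il10ra had overlapping intervals in tumour neutrophil-like (116 CPM, 84.5 to 156) and T-like cells (93.4 CPM, 76.6 to 113). Ccr8, the receptor gene for the Ccl1 product, had 19 kept UMIs in all, 17 of them in lymph node T-like cells (1.34 CPM) and none in tumour T-like cells, where 3 UMIs would give 2.62 CPM, so a difference was not detectable at this depth.

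In T-like cells 12 of 17 receptor genes were tested between tissues, 5 were lower in the lymph node and 1 higher, with a median log2 ratio of -0.41, near that of all genes. Il10ra (-3.86), Il2rb (-2.39) and Il2ra (-2.18) were lower, and Ifngr2, a chain of the interferon-γ receptor, was higher, with 90.9 CPM in the lymph node and 8.73 CPM in the tumour (3.31, 2.5 to 4.44). Ifngr2 thus ran opposite to Ifng between the tissues, while Ifngr1 differed little (-0.24, -0.35 to -0.12).

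The genes whose levels followed those of a member most closely were found by Pearson correlation of log2 CPM over 18 class sums, among 11540 genes for most members. The sums share libraries and differ in depth, so the values describe these sums only. For Ifng they were Klrc1 (0.971), Il18r1 (0.97) and Eomes (0.950), for Tnf Il1a (0.916), Cd300ld (0.897) and Fem1c (0.896), and for Il10 Ms4a7 (0.751), Mrc1 (0.735) and Cryl1 (0.724). For Il17a they were Trat1 (0.872), Cd5 (0.845) and Foxp3 (0.842). T-like cells enter these sums as whole classes, and lymph node T-like cells with a Foxp3 UMI held only 2 of the 53 Il17a UMIs. For Ccl1 they were Ptpn5 (0.880), Gzmk (0.817) and Cxcr6 (0.791), and for Il13 Ccl1 (0.843), Themis (0.787) and Gzmk (0.748). The values for Ccl1 and Il13 rest largely on the few tumour cells named above. For Csf2 they were Nhsl1 (0.865), Erfe (0.859) and Parp16 (0.857), and for Il2, which was low in all classes, AI597479 (0.876), Fancf (0.873) and Kbtbd8 (0.868). Il4 had too few UMIs for this comparison.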

How the data were processed

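The deposited values are UMI counts for each gene in each cell, which the authors made from droplet-based 3′ libraries without normalization; the file headers name Cell Ranger 5.0.0, the submitters' processing notes Cell Ranger 2.1.1 and GRCm38, and the counting of strand is not given in the sources used here. No file assigns cells to types or mice, so each matrix is 1 sample. The members, lists and alternatives were chosen with earlier results of these data known. As in the study, a cell needed over 200 detected genes, no more than 6000, and no more than 5% mitochondrial UMIs. Scrublet (scanpy 1.11.5, expected rate 6%) marked 391 tumour cells and 0 lymph node cells, so in the lymph node the 616 cells with the top 6% of scores were removed instead. Both libraries were clustered together (2000 variable genes per library without the members and lists, 30 components, 15 neighbours, cell cycle scores regressed out, Leiden resolution 1 with igraph 0.11.9, mixed clusters again at 0.5, T-like and NK-like cells again at 1). A class name needed at least 3 raised markers of its list, and the naming thresholds were set after the data were seen. Levels are summed UMIs per 1000000 (CPM) with exact Poisson intervals, shares have Clopper-Pearson intervals, and log2 ratios add 0.5 UMI to each sum; a count of 0 is given the limit of 3 UMIs. Thinned shares are the expected share of cells that keep a UMI when drawn down to 1000 UMIs. Ratios and background shares use genes with at least 20 UMIs over both sums. Correlations use class sums of at least 20 cells, members with at least 30 UMIs in at least 10 cells and genes with at least 200 UMIs. All 9 members are named, with up to 4 genes of each other list with the largest ratio past 2-fold and at least 50 UMIs, the highest class of receptor genes, and 3 genes per correlation; other receptor and marker values were chosen after they were seen. The alternatives were other cell limits, doublets kept, resolution 2, each library alone, mean CPM of cells, the highest cell left out, a gate on marker UMIs, scaling without 50 genes, other minimums and other thinning. The log2 ratio, Poisson interval and thinning steps were tested on simulated counts, and the other steps were not. The remaining steps used pandas 2.3.3, scipy 1.17.1, anndata 0.12.19, numpy 2.4.6 and matplotlib 3.10.9 under Python 3.11.15.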

Additional observations from a re-analysis of the deposited data

Results flagged for a closer look

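The cell limits removed more Il2 UMIs than they kept in the lymph node: 106 of 178 lay in removed cells, 98 of them in 93 cells with over 6000 detected genes, where the level was 1.47 CPM and thus near that of kept cancer-like cells (1.46 CPM). Of the 8 deposited Il4 UMIs of the primary tumour, 6 lay in 1 cell removed as a doublet. Both drew attention because the comparisons do not use these cells, and neither was tested further.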

How the results depend on the processing

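No paired analysis was possible because each tissue has 1 library. Of 407 recomputed values 315 stayed within the counting interval with the same call (counts of genes within 1.5 times), 92 moved and 0 turned in direction. With a mitochondrial limit of 10%, Ifng had 178 CPM in lymph node NK-like and 23.2 in lymph node T-like cells, and in the tumour Il13 had 74.8 and Ccl1 194 CPM in T-like cells and Tnf 584 in macrophage- or monocyte-like cells, with T-like log2 ratios of -3.44 (Ifng), -0.70 (Il2) and 1.40 (Il17a). Without an upper gene limit, these Ifng levels were 255 and 21.9 CPM, Tnf 640.3 and in neutrophil-like cells 1678 CPM, Csf2 in cancer-like cells 5.15 (tumour) and 1.99 CPM (lymph node), and the Il10 ratio -1.09. With doublets kept Tnf had 396 and 1818 CPM in these myeloid classes and Il17a a ratio of 1.03. At resolution 2, lymph node T-like Ifng had 16 CPM, tumour T-like Tnf 23.5 and Ccl1 161, macrophage Tnf 574 CPM and the Il10 ratio was -1.09. Clustered alone, the tumour gave Tnf 22.2 (T-like) and 651 CPM (macrophage) and an Il17a ratio of 1.07. Means of single-cell CPM were 193 and 476 for Ifng (tumour T-like, lymph node NK-like), 15.9 for Il13, 107 for Ccl1, 266 and 8.37 for Il10 (macrophage, lymph node T-like), and 734 and 1543 for Tnf. Without the highest cell, Ifng had 287 (NK-like), Il13 10.6, Ccl1 151, Il10 227 (macrophage), Tnf 896 (neutrophil-like) and Csf2 3.13 CPM (lymph node cancer-like), with ratios of -4.97 (Il13) and 1.38 (Il17a). The lymphocyte over myeloid ratio of Il13 was then 6.41, but against 0 myeloid UMIs, so its size depends on the count added to each sum. Leaving out the highest cell was an alternative chosen after seeing the data. The marker gate, with 353 tumour and 3154 lymph node cells, gave tumour T levels of 318 (Ifng), 0 (Il13) and 175 CPM (Ccl1) and ratios of -4.16 (Ifng), -0.087 (Il13, against 0 tumour UMIs and thus no bound), -1.91 (Il10) and -2.77 (Tnf). Scaling without 50 genes gave -0.93 (Il2) and 1.17 (Il17a), and without a minimum 6085 genes were lower. Adding unnamed clusters to the class whose markers score highest, also chosen after seeing the data, gave Tnf 623 CPM (macrophage) and an Il17a ratio of 1.07. Shares of T-like cells with Ifng were 7.45% and 0.642% thinned to 500 UMIs and 21.3% and 2.28% without thinning. Depth limits Il4, Il2 and Csf2 in T-like cells, and 1 pooled library per tissue gives no spread between mice. Cell classes were rebuilt, and free RNA was not removed.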
